A study of Oryctolagus cuniculus with 9 samples.

Results

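HOX genes encode homeodomain transcription factors that lie in 4 chromosomal clusters, HOXA, HOXB, HOXC and HOXD. The number in the symbol is the paralogue group, which follows the order of the genes along the cluster. Low numbers act towards the head and high numbers towards the tail of the embryo. Connective tissue and smooth muscle keep much of this code in adult life. HOXA13 and HOXD13, at the tail end of their clusters, are needed to form the genital tubercle and the urethra.

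The members were all rows of the deposited count table whose symbol is HOX, a cluster letter and a paralogue number. There were 38 among 28788 gene rows, 10 each of HOXA and HOXB and 9 each of HOXC and HOXD. HOXA5 had no row under that symbol and was not analysed here. The rabbit libraries came from tissue labelled urethral, in a study of a trilayer hydrogel stent for urethral repair, and were made from polyadenylated RNA. There were 9, with 3 each of the codes S6, S7 and S9, and a library is written here as its code and number, such as S6_2. The labels name no treatment, time, age, strain or animal for a code and no control. They also leave it unsaid whether each library is a separate animal, and p-values therefore measure only the spread between libraries, which may be technical.

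Each library held 35127085 to 36832773 counts. Levels are FPKM, reads per gene length scaled to the library's counted reads, as deposited by the authors, and means carry the SD of 3 libraries. Smooth muscle, fibroblast, epithelial, leukocyte, endothelial and nerve markers were present in the libraries. Of 9 skeletal muscle markers 5 had a row, and their summed level lay between 0 and 3.34 FPKM, with MYH1 at 0. S6_4, S7_3 and S9_4 stood apart in mitochondrial genes: COX2 had 338 to 559 counts in them and 45150 to 94469 in the other 6 libraries, while CYTB had 45539 to 97878 in all 9. The marker sums differed between the codes. Leukocyte markers summed to 15910 to 27580 FPKM in S6, 5380 to 11300 in S7 and 890 to 1459 in S9. S100A8, S100A9 and S100A12 made up 89.0% to 98.9% of these sums. The other 8 leukocyte markers summed to 268, 811 and 513 FPKM in S6_2, S6_3 and S6_4, 135 to 196 in S7 and 74.7 to 122 in S9. Among them PTPRC ordered the libraries differently, at 6.09, 37.4 and 12.8 FPKM in S6, 2.38 to 4.675 in S7 and 2.52 to 4.77 in S9. Smooth muscle markers summed to 1140 to 1885, 1846 to 5427 and 3274 to 5868 FPKM. Fibroblast markers summed to 6882 to 10560, 12250 to 22720 and 10640 to 12600 FPKM. Nerve markers summed to 19.4 to 84.0, 26.5 to 115 and 115 to 160 FPKM. In such bulk samples, fewer cells of a type and less RNA per cell cannot be told apart.

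The urethral libraries carried a posterior HOX code dominated by HOXD and HOXA. Of the 38 genes, 18 were at or above 1 FPKM in all 9 libraries, 13 were below 1 FPKM in all 9, and 7 crossed that level. Among paralogue groups 9 to 13, 11 of 16 genes were at or above 1 FPKM in every library, against 7 of 22 in groups 1 to 8. By cluster these were 7 of 9 HOXD, 6 of 10 HOXA, 3 of 10 HOXB and 2 of 9 HOXC genes. Over the 9 libraries HOXD gave 58.2% ± 3.37 of the summed HOX FPKM, HOXA 31.4% ± 3.17, HOXB 7.495% ± 1.37 and HOXC 2.88% ± 1.24 (SD, n = 9). Groups 9 to 13 together gave 76.05% to 81.1% in each library.

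**Figure D1:**
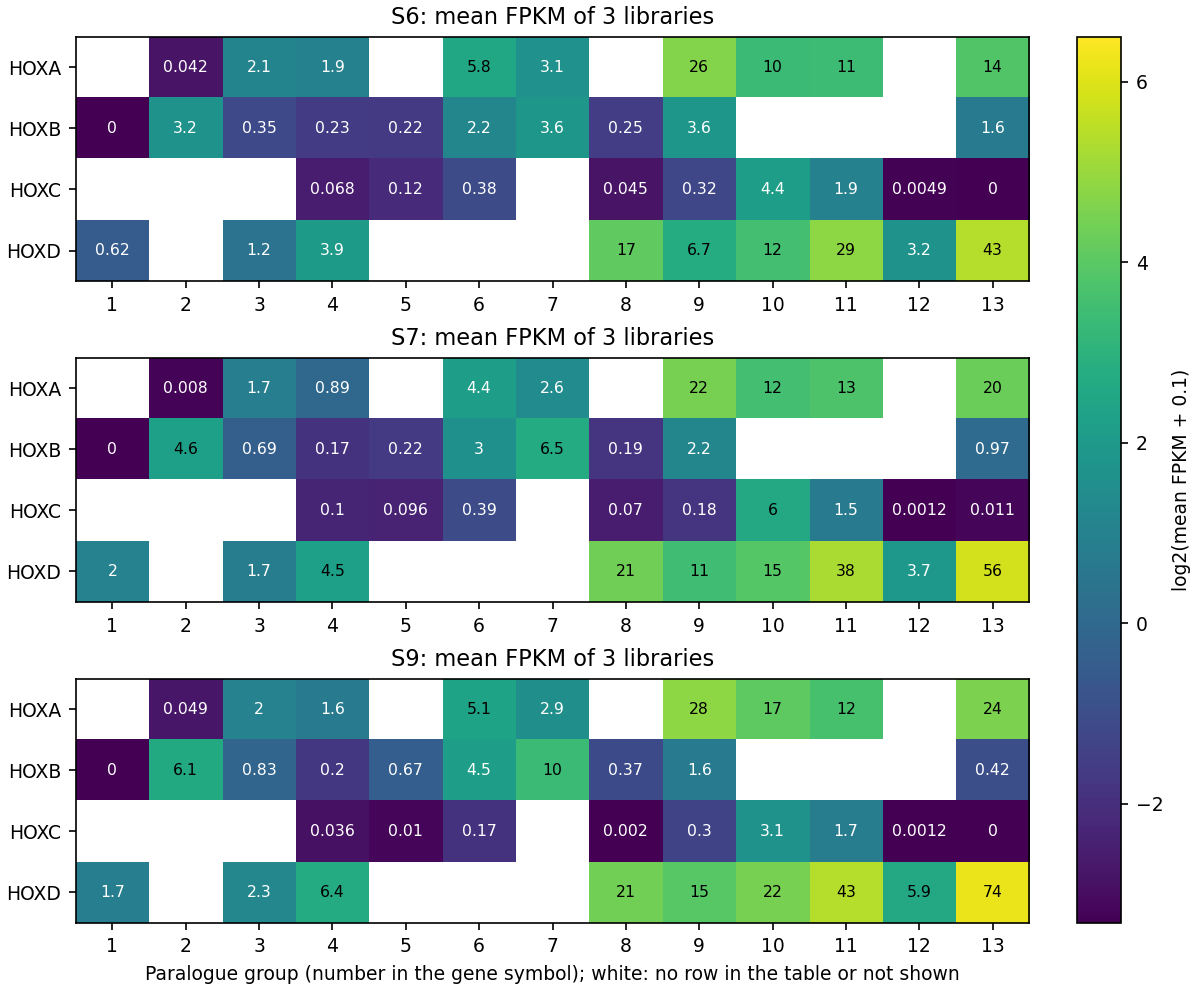
Mean FPKM of each HOX gene in S6, S7 and S9 (3 libraries each), with clusters in rows and paralogue groups 1 to 13 in columns. The colour is log2(mean FPKM + 0.1), the printed number is the mean FPKM, and white marks a gene with no row or not shown. HOXD13 is the brightest cell in each panel, at 42.7, 56.2 and 74.0 FPKM.

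HOXD13, which patterns the distal limb and the external genitalia, was the highest HOX gene in all 9 libraries. It stood at 48.9, 28.7 and 50.6 FPKM in S6_2, S6_3 and S6_4, at 71.6, 45.9 and 51.0 in S7_2, S7_3 and S7_4, and at 80.4, 75.2 and 66.3 in S9_1, S9_2 and S9_4. The S9 libraries all lay above those of S6, and S7 overlapped both. HOXD13 alone made up 18.3% to 24.9% of the summed HOX FPKM of a library, and its mean exceeded that of 95.2% of all gene rows. HOXA13, its paralogue in the HOXA cluster, was at 17.8, 9.41 and 15.1 FPKM in S6, 22.6, 19.1 and 17.2 in S7, and 23.0, 22.7 and 25.1 in S9. The ratio of HOXD13 to HOXA13 stayed between 2.41 and 3.50 in the 9 libraries.

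HOXD11 and HOXA11, of the group known for kidney and forelimb patterning, were also high. HOXD11 was at 30.9, 25.7 and 29.4 FPKM in S6, 44.1, 33.1 and 36.1 in S7, and 46.9, 37.1 and 43.6 in S9. All 6 libraries of S7 and S9 lay above the 3 of S6. HOXA11 was at 11.9, 8.02 and 12.03 FPKM in S6, 13.5, 14.97 and 11.96 in S7, and 10.99, 11.7 and 14.5 in S9, with overlapping codes. HOXD12, the only gene of its group with more than 4 counts in a library, was at 3.85, 1.52 and 4.29 FPKM in S6, 4.86, 2.49 and 3.72 in S7, and 5.28, 5.95 and 6.59 in S9. HOXC12 had at most 4 counts in any library.

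Groups 9 and 10 included HOX genes of high and low level. HOXA10, known for its role in the uterus, was at 11.1, 8.34 and 11.01 FPKM in S6, 14.5, 8.57 and 12.1 in S7, and 17.8, 18.9 and 13.3 in S9. HOXD10 was at 14.8, 9.24 and 11.6 FPKM in S6, 19.4, 10.9 and 14.1 in S7, and 21.3, 23.75 and 21.7 in S9, so that S9 lay above all other libraries. HOXC10 took another course, at 4.50, 4.67 and 4.10 FPKM in S6, 4.005, 7.29 and 6.80 in S7, and 2.74, 2.69 and 3.93 in S9, where S9 lay below the other codes. HOXA9, which also acts in blood progenitors, was at 31.4, 14.3 and 31.7 FPKM in S6, 23.6, 18.9 and 24.4 in S7, and 25.9, 23.7 and 34.5 in S9, and the codes overlapped. HOXD9 was at 7.54, 5.44 and 7.04 FPKM in S6, 14.1, 7.45 and 12.2 in S7, and 15.1, 17.0 and 14.3 in S9, with every S9 library above the other 6 in FPKM, though not above S7 in TMM-scaled CPM.

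HOXD8 was the highest gene of groups 1 to 8, at 21.2, 12.4 and 17.9 FPKM in S6, 23.0, 17.9 and 21.1 in S7, and 22.3, 19.1 and 22.1 in S9. Its group 8 paralogues were low. HOXB8 reached at most 0.575 FPKM and HOXC8 at most 0.122 FPKM. HOXB7 was at 3.06, 4.16 and 3.61 FPKM in S6, 7.54, 5.05 and 6.93 in S7, and 11.7, 13.2 and 5.98 in S9. Its S7 and S9 libraries all lay above S6, and S9_4 lay within the range of S7. HOXB6 was at 2.12, 2.57 and 1.92 FPKM in S6, 3.29, 2.48 and 3.12 in S7, and 5.31, 5.75 and 2.34 in S9. HOXB2, a hindbrain gene in the embryo, was at 2.84, 3.46 and 3.41 FPKM in S6, 4.85, 3.997 and 4.81 in S7, and 8.03, 7.32 and 3.02 in S9. For HOXB2, HOXB6 and HOXB7 the low S9 library was S9_4, which also had the lowest smooth muscle marker sum of S9, 3274 FPKM against 4390 and 5868. S9_4 also differed from S9_1 and S9_2 in COX2 (545 counts against 94469 and 48475). Its epithelial marker sum was 2502 FPKM against 1321 and 1209, and its endothelial marker sum 253 against 427 and 455. The part of any of these differences in the HOXB levels was not tested.

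HOXD4 was at 4.99, 2.88 and 3.95 FPKM in S6, 5.53, 3.22 and 4.78 in S7, and 6.597, 5.97 and 6.69 in S9. HOXA6 lay between 3.65 and 8.15 FPKM and HOXA7 between 2.19 and 3.71 FPKM, with codes that overlapped in both. HOXC11 lay between 1.07 and 2.17 FPKM and its codes overlapped too. HOXD1, at the head end of its cluster, was at 0.491, 0.744 and 0.619 FPKM in S6, 2.44, 1.67 and 1.76 in S7, and 1.52, 2.24 and 1.48 in S9. The lowest library of S7 or S9 stood well above the highest of S6.

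The genes near or below 1 FPKM were mostly of the HOXB and HOXC clusters. HOXA3, HOXA4, HOXB3, HOXB9, HOXB13 and HOXD3 crossed 1 FPKM, as did HOXD1. HOXC4, HOXC5, HOXC6, HOXC8 and HOXC9 stayed below 1 FPKM in all 9 libraries, so HOXC10 and HOXC11 were the only HOXC genes above 1 FPKM. HOXA2, HOXB4, HOXB5 and HOXB8 were below 1 FPKM in each library as well. HOXC13, a hair follicle gene, had 4 counts in S7_4 and none in the other libraries, and HOXB1 had no count in any library. Just inside the level of 1 FPKM was HOXC11, with a minimum of 1.07 FPKM, and just outside it were HOXD3, with a minimum of 0.970 FPKM, and HOXA3, with 0.865 FPKM.

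The set of HOX genes at or above 1 FPKM in all 3 libraries of a code was nearly the same in the codes. It held 19 genes in S6, 22 in S7 and 21 in S9, and 18 were common to all 3. HOXA3, HOXD1 and HOXD3 were in the S7 and S9 sets but not in that of S6, and HOXB9 was in the S6 and S7 sets but not in that of S9. HOXB9 missed the S9 set through S9_1 alone, at 0.449 FPKM. HOXA3 and HOXD3 missed the S6 set through S6_3 alone. Without that library the S6 set held 23 genes, and HOXD1 was still not at 1 FPKM in the other 2.

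The order of the genes was also alike. Across the 38 genes, Spearman's rho of FPKM between 2 libraries ran from 0.957 to 0.987 in the 9 pairs of the same code and from 0.920 to 0.985 in the 27 pairs of different codes. Within the 18 genes at or above 1 FPKM throughout, it ran from 0.907 to 0.977 and from 0.825 to 0.975. These correlations are across genes, which share each library and are not replicates. HOXD13 ranked 1 in every library, HOXD11 ranked 2 or 3, HOXA9 2 to 4, HOXA13 3 to 5 and HOXD8 4 to 6. Ranks moved most among the HOXB genes: HOXB9 ranged from 11 to 25, HOXB5 from 23 to 34 and HOXB13 from 20 to 30.

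The summed HOX level was higher in each S9 library than in S6, and S7 overlapped S6. It was 245, 157 and 237 FPKM in S6_2, S6_3 and S6_4, 299, 220.5 and 249.9 in S7_2, S7_3 and S7_4, and 323, 314 and 308 in S9_1, S9_2 and S9_4. In deposited FPKM the S9 libraries lay above all others, and S6_3 was lowest. These sums were not rescaled by TMM, whose factors were 1.053 for S9_4 and 0.9955 for S7_2. With those factors S9_4 would lie below S7_2, while S9 would stay above S6. S6_3 also had the highest leukocyte marker sum, 27580 FPKM, with and without the S100A genes. HOXD summed to 87.5 to 134 FPKM in S6 and 185 to 201 FPKM in S9, and HOXA to 48.8 to 87.6 and 88.5 to 100.1 FPKM. With TMM factors the HOXA sums of S6 and S9 would overlap. HOXC summed to 6.96 to 7.43 FPKM in S6, 5.92 to 10.2 in S7 and 4.04 to 6.76 in S9. These sums are descriptions and carry no test.

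**Figure D2:**
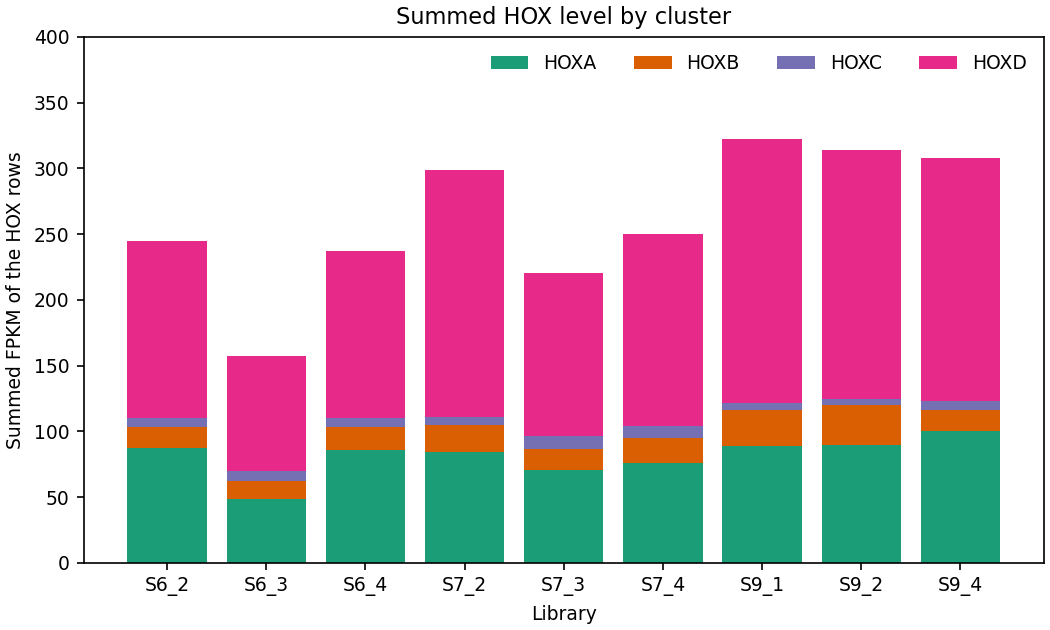
Summed FPKM of the HOX genes in each of the 9 libraries, stacked by cluster. HOXD takes the largest part of every bar, and the S9 bars reach 308 to 323 FPKM against 157 to 245 in S6.

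Between S9 and S6, 5 of the 33 HOX genes tested rose by edgeR's quasi-likelihood test at an adjusted p below 0.05, and none fell, with 16 at an unadjusted p below 0.05, of which HOXB13 and HOXC8 were lower. The 5 were HOXD1, HOXD9, HOXD10, HOXD11 and HOXB7. Of all 17102 genes tested 6.02% were called higher and 6.34% lower, and 5338 had an unadjusted p below 0.05. HOXD9 went from 6.67 ± 1.10 FPKM in S6 to 15.5 ± 1.36 in S9 (log2 fold change 1.17, SE 0.22, edgeR adjusted p = 0.0210). HOXB7 went from 3.61 ± 0.551 to 10.3 ± 3.82 FPKM (log2 fold change 1.46, SE 0.33, edgeR adjusted p = 0.0305). HOXD1 went from 0.618 ± 0.127 to 1.75 ± 0.423 FPKM (log2 fold change 1.44, SE 0.36, edgeR adjusted p = 0.0385). HOXD10 and HOXD11 lay close to the threshold, with log2 fold changes of 0.86 and 0.52 and edgeR adjusted p of 0.0472 and 0.0479. For each of the 5 genes the S9 libraries all lay above those of S6.

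The calls depended on single libraries and on the tool, for HOX genes as for all genes. Without S6_3 or S7_4 only HOXB7 and HOXD9 were called, without S6_4, S9_1 or S9_2 no HOX gene was, although 11 to 14 still had an unadjusted p below 0.05, and none was called in the 6 libraries left without S6_4, S7_3 and S9_4, which had the low mitochondrial counts (12 at an unadjusted p below 0.05). In those fits 89, 0 and 4 of all genes were called without S6_4, S9_1 and S9_2, and 7 in the 6 libraries, against 2115 with all 9. The share of all genes at an unadjusted p below 0.05 was not counted there. The log2 fold change of HOXD9 lay between 1.02 and 1.25 in the 19 alternatives run. Without S6_2 the called genes were HOXA13, HOXD4, HOXD9 and HOXD10, and without S9_4 they were HOXA10, HOXB2, HOXB6, HOXB7, HOXD1 and HOXD9. DESeq2 called 12 genes higher, the 5 and HOXA10, HOXA13, HOXB3, HOXB5, HOXB6, HOXD4 and HOXD13, and HOXC8 lower, beside 11.9% higher and 12.1% lower of all genes. By edgeR, 11 of 11 leukocyte markers tested were called lower in S9 against S6, beside 6.34% of all genes. Called higher were 8 of 10 smooth muscle, 3 of 6 nerve and 2 of 6 endothelial markers, beside 6.02% of all genes. Of the fibroblast markers 1 of 10 was called higher, and of the epithelial markers 1 of 11. Their part in the HOX result was not tested.

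**Figure D3:**
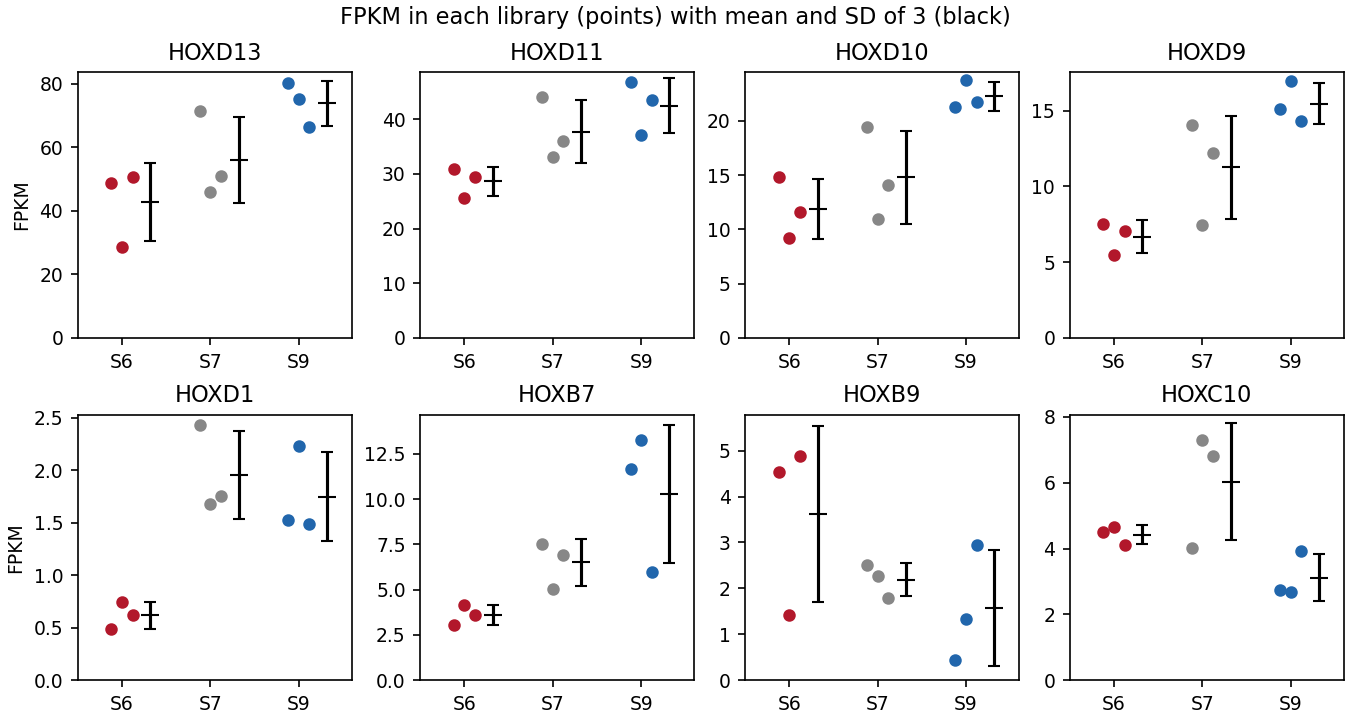
FPKM of HOXD13, HOXD11, HOXD10, HOXD9, HOXD1, HOXB7, HOXB9 and HOXC10 in the 9 libraries (points), with mean and SD of 3 libraries beside them. Each vertical axis starts at 0. For HOXD9 and HOXD10 the S9 points lie above all others, and for HOXC10 they lie below.

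The signs of the log2 fold changes between S9 and S6 differed by cluster, also in genes that were not called. All 9 HOXD genes had a positive log2 fold change, from 0.26 for HOXD8 to 1.44 for HOXD1, with a median of 0.82, and 4 were called. The S9 libraries did not overlap with S6 for 8 of them, all but HOXD8. Over all genes 49.3% had a positive log2 fold change, the median was -0.01 and 18.6% lay above S6 without overlap. HOXD13 stood at 0.75 on the log2 scale (SE 0.23) and was not called, with an edgeR adjusted p of 0.0608. Of the 9 HOXA genes tested 4 had a positive log2 fold change (median -0.12), 2 had an unadjusted p below 0.05, and none was called by edgeR. HOXA10 (0.67, edgeR adjusted p = 0.0699) and HOXA13 (0.70, edgeR adjusted p = 0.0572) were above S6 without overlap.

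HOXB was mixed. HOXB2, HOXB3, HOXB5, HOXB6, HOXB7 and HOXB8 had positive log2 fold changes from 0.52 to 1.58, of which that of HOXB7 was called. HOXB4 was at -0.27, HOXB9 at -1.24 and HOXB13, a gene of prostate and hindgut epithelium, at -1.95, none of them called (edgeR adjusted p = 0.836, 0.226 and 0.135). HOXB9 was at 4.55, 1.42 and 4.88 FPKM in S6, 2.51, 2.28 and 1.79 in S7, and 0.449, 1.32 and 2.95 in S9, and HOXB13 was at 1.99, 0.697 and 2.14, at 0.810, 1.41 and 0.692, and at 0.0842, 0.834 and 0.341 FPKM. In both genes S6_3 was low and S6_2 and S6_4 were high, and the codes overlapped. The epithelial markers summed to 2377, 1417 and 2401 FPKM in S6, 2006, 2104 and 2515 in S7, and 1321, 1209 and 2502 in S9, low in S6_3, S9_1 and S9_2. Their part in the levels of HOXB9 and HOXB13 was not tested.

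All 6 HOXC genes tested had a negative log2 fold change in S9 against S6 (median -0.77), and none was called by edgeR, with HOXC8 at an unadjusted p of 0.0166. The sign was not firm for each: HOXC11 was at -0.22 (SE 0.29) and at 0.0025 without S9_2. HOXC6 and HOXC10 lay below S6 without overlap, and so did HOXC8 on TMM-scaled CPM, beside 17% of all genes. For HOXC8, S6_3 and S9_4 each held 1 count and differed only through library scaling. HOXC10 stood at -0.57 on the log2 scale (SE 0.28, edgeR adjusted p = 0.210). HOXC6 was at 0.403, 0.318 and 0.417 FPKM in S6 and 0.0686, 0.133 and 0.311 in S9 (log2 fold change -1.21, edgeR adjusted p = 0.193). HOXC8 had 23 counts over the S6 libraries, 36 over S7 and 1 over S9. The ratio of S6 to S9 was 23.2 with an exact 95% interval from 3.76 to 954, which covers counting error only. HOXC5, too low to be tested, had 24, 19 and 2 counts in S6, S7 and S9, of which 18 of the 24 were in S6_3.

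**Figure D4:**
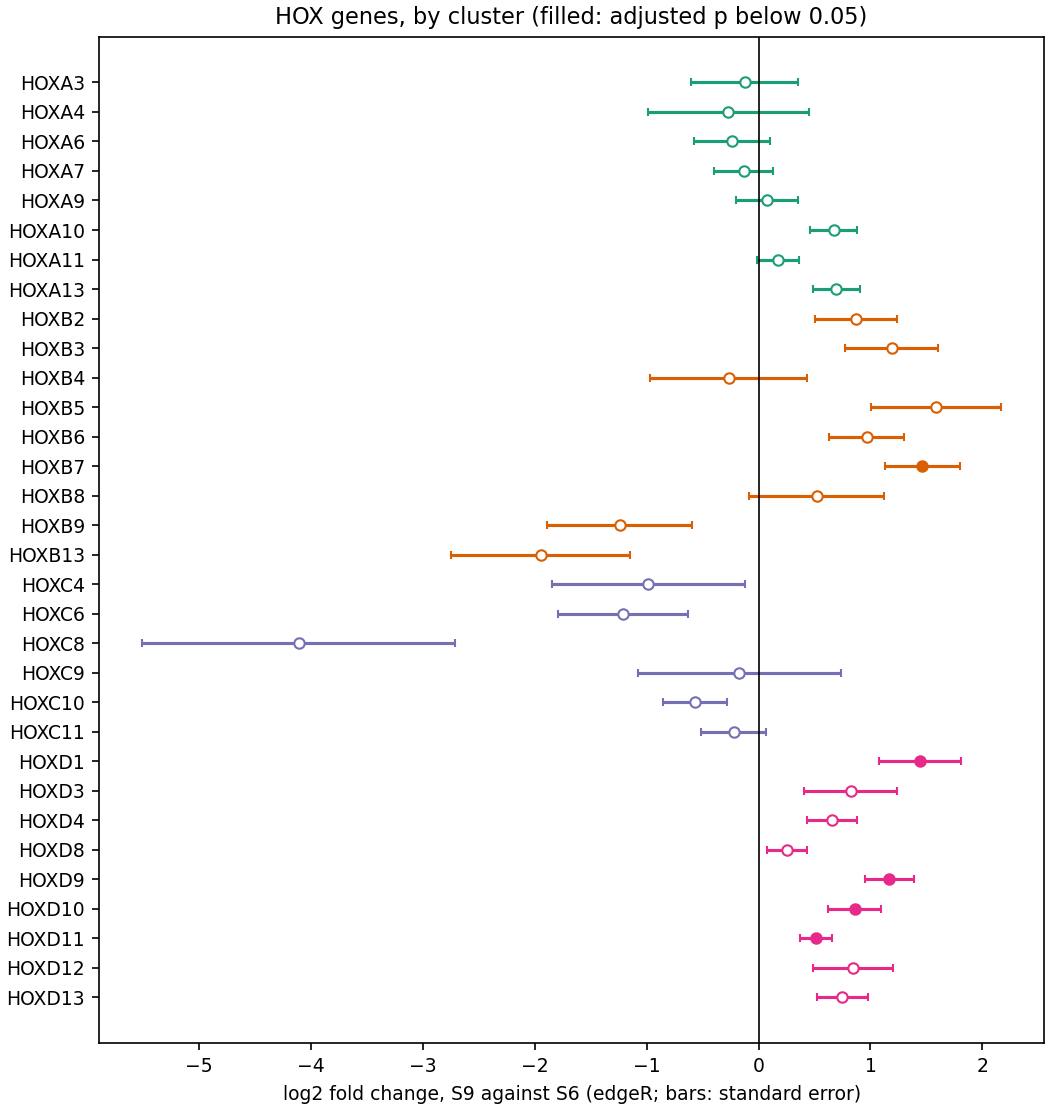
Log2 fold change of S9 against S6 for HOX genes tested (edgeR), with standard errors, in cluster order. Filled points passed the adjusted p of 0.05. The HOXD points lie right of 0 and the HOXC points left of it. The value for HOXC8 rests on 1 count in S9 and depends on the fit.

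No HOX gene was called by edgeR between S7 and either other code. In S7 against S6, 0 of 33 HOX genes and 0.111% of all genes were called by edgeR. An unadjusted p below 0.05 was found for 6 of the 33 HOX genes and for 2928 of all 17102 genes. All 9 HOXD genes again had a positive log2 fold change (median 0.41), beside 48.9% of all genes. Unlike in S9 against S6, 4 of the 6 HOXC genes tested were positive (median 0.26). This comparison shares the S6 libraries with that of S9 against S6, so the directions are not independent. HOXD1 stood at 1.66 on the log2 scale (SE 0.37, edgeR adjusted p = 0.106) and HOXD9 at 0.77 (SE 0.22, edgeR adjusted p = 0.141). Both were called by DESeq2 (adjusted p = 0.000525 and 0.0321), which called 3.99% of all genes higher. On TMM-scaled CPM the S7 libraries lay above S6 without overlap for 7 HOX genes, HOXA11, HOXB2, HOXB3, HOXB7, HOXD1, HOXD9 and HOXD11, which is 7 of 33 beside 10.7% of all genes. In the FPKM given above, HOXA11 and HOXD9 of these overlapped.

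In S9 against S7, 0 of 33 HOX genes and 0% of all genes were called by edgeR. DESeq2 called no HOX gene and 0.719% of all genes. It had 5 HOX genes at an unadjusted p below 0.05, a level at which all genes were not counted for DESeq2. By edgeR 3 of the 33 HOX genes had an unadjusted p below 0.05, beside 1575 of all 17102 genes. Those 3 were HOXB5 (log2 fold change 1.56), HOXC8 (-4.80, resting on 1 count in S9) and HOXC10 (-1.03, SE 0.29), all with an edgeR adjusted p of 0.538. For HOXC10, 4.42 ± 0.290 FPKM in S6 and 6.03 ± 1.77 in S7 stood against 3.12 ± 0.703 in S9. In the joint test of the 3 codes no HOX gene was called by edgeR, with HOXD9 at an adjusted p of 0.0520, HOXD1 at 0.0630 and HOXB7 at 0.0753, while 2.43% of all genes were called.

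To describe the code apart from the overall HOX level, each log2 FPKM was set against the library's mean over the 18 genes at or above 1 FPKM throughout. That mean corresponded to 5.77 to 7.89 FPKM in S6, 7.32 to 9.56 in S7 and 9.89 to 10.8 in S9. On this relative scale HOXD9, HOXD10 and HOXD13 still lay above S6 in all S9 libraries, by 0.68, 0.39 and 0.29 on the log2 scale between group means. HOXA6, HOXA7, HOXC10 and HOXC11 lay below, by -0.70, -0.63, -1.07 and -0.75. These are 3 above and 4 below of 18, where 18.6% of all genes lay above and 17% below without overlap on TMM-scaled CPM. The gaps were narrow for HOXD13 (2.75 in S9_4 against 2.69 in S6_4) and HOXD10 (0.98 in S9_1 against 0.91 in S6_2). The gap was also narrow for HOXA6 (-0.80 in S9_1 against -0.74 in S6_2). The relative levels of the 18 genes sum to 0 in each library, so a gene with a steady level falls on this scale where the mean is higher. Unscaled, HOXA6, HOXA7 and HOXC11 overlapped between S9 and S6, with log2 fold changes of -0.24, -0.13 and -0.22, none of them called. The other 11 genes overlapped, among them HOXD11 with a difference of 0.03 and HOXB7 with 0.90, which S9_4 and S6_3 brought together. The ratio of HOXD10 to HOXC10 was 3.29, 1.98 and 2.83 in S6, 4.845, 1.498 and 2.07 in S7, and 7.77, 8.84 and 5.53 in S9. S9 lay above all other libraries in that ratio, which follows from its HOXD10 levels being the highest and its HOXC10 levels the lowest. The ratio of HOXD9 to HOXA9 was 0.240, 0.381 and 0.222 in S6, 0.597, 0.395 and 0.4996 in S7, and 0.585, 0.716 and 0.415 in S9. In that ratio S7 overlapped S9, and both lay above S6. The ratio of HOXD10 to HOXA10 lay between 1.06 and 1.63 in the 9 libraries with overlapping codes.

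**Figure D5:**
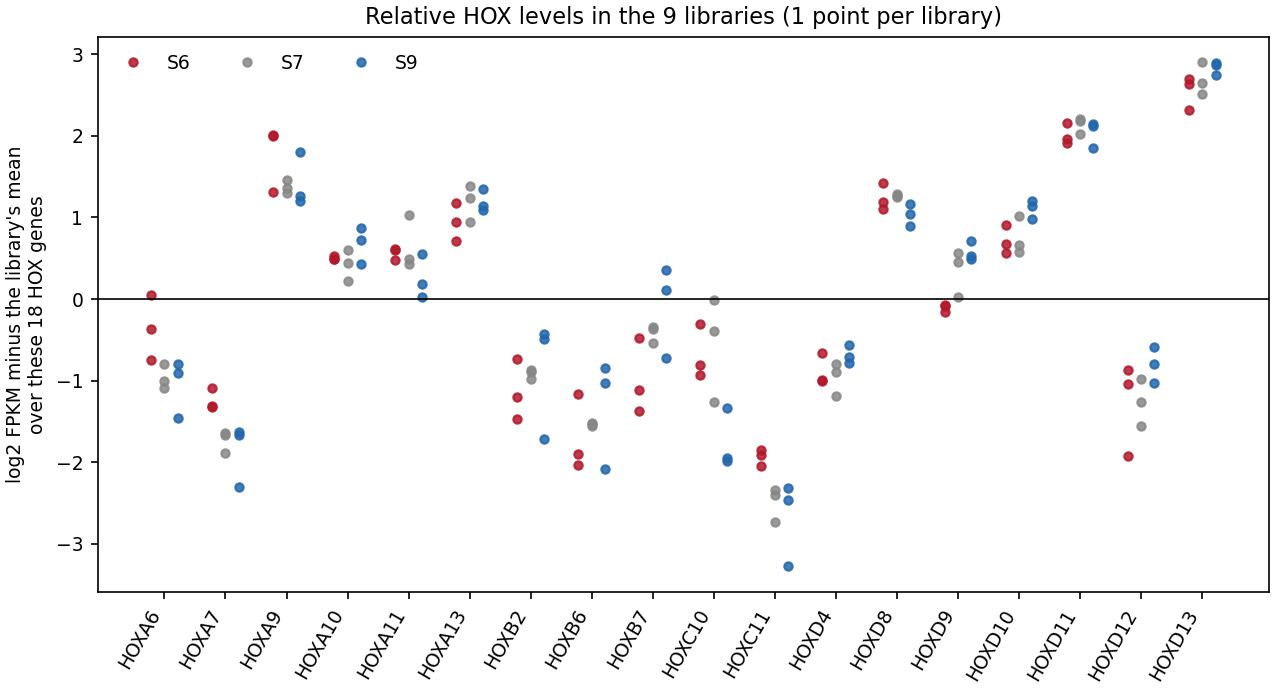
Relative log2 level of the 18 HOX genes at or above 1 FPKM in all 9 libraries, as log2 FPKM minus the library's mean over these genes, with 1 point per library and S6, S7 and S9 side by side. HOXD9 lies at -0.16 to -0.07 in S6 and at 0.49 to 0.72 in S9, and most other genes overlap.

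HOX proteins bind DNA together with PBX, MEIS and PKNOX homeodomain cofactors. Of the 7 cofactor genes tested 1 was called higher in S9 against S6 and none lower, beside 6.02% of all genes called higher. The median log2 fold change of the 7 was 0.12. The gene called was PKNOX2, at 2.36, 1.42 and 1.62 FPKM in S6, 4.67, 1.92 and 3.84 in S7, and 8.25, 9.46 and 3.84 in S9 (log2 fold change 1.96, SE 0.42, edgeR adjusted p = 0.0261). The S9 libraries lay above S6, with S9_4 the lowest of S9, as for HOXB7. MEIS1 was at 12.4 ± 3.52, 15.2 ± 1.66 and 11.45 ± 5.09 FPKM, and MEIS2 at 11.2 ± 5.01, 12.1 ± 1.92 and 9.62 ± 1.87 FPKM, and neither was called.

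EVX2, a homeobox gene that lies beyond the HOXD13 end of the HOXD cluster, was called higher in S9 than in S6. It was at 2.76, 1.44 and 3.001 FPKM in S6, 4.10, 1.84 and 2.91 in S7, and 6.92, 5.16 and 5.05 in S9 (log2 fold change of S9 against S6 1.21, SE 0.34, edgeR adjusted p = 0.0493). Every S9 library lay above the other 6, but the call lay close to the threshold. EVX1, its counterpart next to HOXA13, was at 5.03 ± 3.31, 5.03 ± 1.24 and 5.30 ± 3.81 FPKM and was not called. EVX1, EVX2 and EN1 were the 3 tested of 13 ParaHox and flanking homeobox genes. CDX2, CDX4, GSX1, GSX2, PDX1 and EN2 were listed at 0 in all 9 libraries.

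Chromatin regulators of the Polycomb and Trithorax groups keep HOX genes silent or active. Of 24 tested, 5 were called higher in S9 against S6 and none lower, beside 6.02% higher and 6.34% lower of all genes. The median log2 fold change was 0.26, and 19 of the 24 were positive. KMT2A, a Trithorax-type methyltransferase that maintains HOX expression, was at 3.13 ± 0.445 FPKM in S6, 4.09 ± 0.933 in S7 and 6.74 ± 1.17 in S9 (log2 fold change 1.06, SE 0.19, edgeR adjusted p = 0.0196). The others were the methyltransferase KMT2D (0.75) and the Polycomb genes CBX6 (1.04), PCGF2 (0.57) and PHC3 (0.77). The Polycomb gene EZH2 had the largest change of the list and went the other way, uncalled. It was at 4.35 ± 0.941 FPKM in S6, 2.84 ± 0.671 in S7 and 1.98 ± 0.891 in S9 (log2 fold change -1.21, SE 0.35, edgeR adjusted p = 0.0538). Retinoic acid switches on HOX genes in the embryo. Of 14 genes of its synthesis, breakdown and reception 1 was called, the retinol transporter STRA6, lower in S9, at 5.95 ± 0.970 FPKM in S6 and 2.93 ± 0.559 in S9 (log2 fold change -1.08, edgeR adjusted p = 0.0207), and the list's median was -0.0049 on the log2 scale. None of these lists had a member called in S7 against S6 or in S9 against S7 by edgeR. The calls in S9 against S6, those of PKNOX2 and EVX2 included, depended on single libraries. Without S9_1 edgeR called 0 of 17557 genes, so none of them held there. Calls of list members in the other alternatives were not counted. A link between these genes and the HOX levels was not tested.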

How the data were processed

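Polyadenylated RNA of 9 rabbit urethral libraries was sequenced from libraries made with the SMARTER mRNA-Seq kit, per the labels' protocols. The authors deposited whole-number read counts per gene and FPKM values of the same libraries. Per the submitters' processing notes the tools were fastp, HISAT2 and HTSeq. Versions, build, annotation and strand setting were not given in the sources used here. For HOX genes with reads, deposited FPKM were counts over the library total and a whole-number gene length, from 684 bases for HOXA6 to 8975 for HOXC4, so levels depend on those gene models. In the RefSeq table for mOryCun1.1, used only for names and neighbours, all 38 HOX symbols were found, and 9 pairs of HOX genes overlap in span (13 genes, among them HOXB3 with HOXB4, HOXB5 and HOXB6, HOXB8 with HOXB9, HOXC4 with HOXC5 and HOXC6, and HOXD11 with HOXD8, HOXD9 and HOXD10). Reads in shared stretches, or from antisense transcripts, cannot be assigned with certainty.

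Counts were filtered with filterByExpr (minimum count 10, minimum total 15), which left 17102 of 28788 genes and 33 of 38 HOX genes. HOXA2, HOXB1, HOXC5, HOXC12 and HOXC13 were not tested. Counts were scaled by TMM and 1 model of the 3 codes was fitted over all genes by robust quasi-likelihood in edgeR (version 4.0.16, R 4.3.3). Benjamini-Hochberg adjustment was over all genes tested, with a threshold of 0.05, and the scripts were tested on simulated data. Overlap of codes in counts of non-overlapping genes was read on TMM-scaled CPM. Each standard error was the fold change over the square root of F. Alternatives were other scalings and filters, DESeq2 1.42.0, limma 3.58.1 on log2(FPKM + 1) and log2(FPKM + 0.1), a replicate block, fewer libraries and each library left out. Values are given for HOX genes at or above 1 FPKM in all 9 libraries or called, the other members by range or count, and list members if called. HOXA3, HOXC5, HOXC6, HOXC8, HOXB9, HOXB13, MEIS1, MEIS2, EVX1 and EZH2 are named beyond that. The members and lists were chosen with earlier results of these data known. Some genes are not reported here by name or value. Same-numbered libraries were not taken as pairs.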

Additional observations from a re-analysis of the deposited data

How the results depend on the processing

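The number of HOX genes called in S9 against S6, 5 by edgeR, was 5 with DESeq2 size factors, upper-quartile scaling, a minimum of 1 CPM in 3 libraries and limma-trend on log2(FPKM + 1) or log2(FPKM + 0.1), with HOXB5 in place of HOXD11 for a pseudocount of 1 and the same genes otherwise. It was 2 with no filter (7.73% of all genes called, against 12.4%), 13 by DESeq2 (24.0%), 1 with only the 2 codes compared (8.66%), 0 in the 6 libraries of high mitochondrial counts (0.0406%), and 0 to 6 when 1 library was left out (0% to 11.8%). With a replicate block it was 0 (0.0936% of all genes), and 9 HOX genes had an unadjusted p below 0.05, a level at which all genes were not counted. Number 1 occurs only in S9_1, so the block also takes S9_1 out of the comparison, and leaving out S9_1 alone gave 0 too. The labels give the shared numbers no meaning, so same-numbered libraries were not treated as pairs. Correlations of their deviations ran from -0.06 to 0.14, against -0.18 to 0.10 for different numbers. The highest, 0.14, 0.13 and 0.13, were of same-numbered libraries, so this check cannot settle whether they are pairs. In S7 against S6 the count was 0, and 2 by DESeq2. The causes of these shifts were not tested. Counted by reads and not per length, HOXA gave 27.7% of the HOX total and groups 9 to 13 gave 76.7%. Signs turned only in uncalled values. In the 6 libraries HOXA6 was at 0.0462 (S9 against S6) and 0.0293 (S7 against S6), HOXA9 at 0.0506 (S7 against S6), and HOXA7 at -0.020 and HOXC11 at -0.0782 (S9 against S7). With the replicate block HOXA9 was at -0.0255 (S9 against S6), and HOXA6 at -0.16, HOXC11 at -0.16 and HOXD11 at -0.0106 (S9 against S7). HOXD8 in S9 against S7 was at 0.0385 and 0.0403 under limma-trend with pseudocounts of 1 and 0.1. With 1 library left out, S9 against S6 ran from -0.39 to 0.0779 for HOXA6, -0.26 to 0.0452 for HOXA7, -0.18 to 0.24 for HOXA9 and -0.34 to 0.0025 for HOXC11. HOXD12 in S7 against S6 ran from -0.0897 to 0.46. S9 against S7 ran from -0.0207 to 0.29 for HOXA6, -0.0349 to 0.27 for HOXA7, -0.0573 to 0.28 for HOXC11 and -0.0904 to 0.0386 for HOXD8. The other values of the 19 named genes kept their sign in the alternatives run. Depth limits HOXA2, HOXB1, HOXC5, HOXC8, HOXC12 and HOXC13, where differences were not detectable or rest on few counts.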

Other observations

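Some other genes that mark position along the body or organ were higher in S9 than in S6. Of 25 tested transcription factors of this kind, 7 were called higher by edgeR and none lower, beside 6.02% of all genes called higher. Their median log2 fold change was 0.44 against -0.01 over all genes, and 16 of the 25 were positive. FOXF1 and FOXF2, forkhead factors of gut and bladder mesenchyme, were at 10.6 ± 1.54 and 21.6 ± 4.08 FPKM in S6, 21.6 ± 8.58 and 44.2 ± 18.75 in S7, and 34.5 ± 7.72 and 59.7 ± 10.9 in S9 (log2 fold changes of S9 against S6 1.64 and 1.42, edgeR adjusted p = 0.0199 and 0.0248). ISL1, a factor of the genital tubercle and bladder mesenchyme, was at 7.24 ± 1.88, 10.3 ± 1.98 and 16.5 ± 1.14 FPKM (log2 fold change 1.13, edgeR adjusted p = 0.0196). The hindlimb factor TBX4 was at 4.57 ± 0.457, 9.12 ± 2.89 and 8.46 ± 0.986 FPKM (0.83), the forelimb factor TBX5 at 1.15 ± 0.533, 2.49 ± 0.750 and 3.23 ± 0.642 FPKM (1.42) and TBX2 at 3.82 ± 0.203, 6.87 ± 1.39 and 7.56 ± 1.04 FPKM (0.93). The list's median was 0.63 in S7 against S6 and 0.01 in S9 against S7, and edgeR called none of its members there. The calls in S9 against S6 did not hold without S9_1, where edgeR called 0 of 17557 genes.

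The RefSeq table placed 17 further genes within the 4 clusters, of which 5, all long non-coding RNAs, had a row in the count table. LOC103348785 lies between HOXD1 and HOXD4, and its span overlaps that of HOXD3. It had 1, 1 and 9 counts in S6, 23, 23 and 4 in S7, and 27, 22 and 33 in S9, and was not called (2.82 on the log2 scale for S9 against S6, SE 0.99, edgeR adjusted p = 0.0918). LOC127484476 lies between HOXB7 and HOXB13, and its span overlaps those of HOXB8 and HOXB9. It had 86, 20 and 183 counts in S6, 15, 19 and 37 in S7, and 17, 12 and 96 in S9. It was high in S6_2, S6_4 and S9_4, which were also the highest libraries for HOXB9. Both were singled out after their values were seen, and reads of antisense transcripts may be shared with the neighbouring genes.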
